A study of Mus musculus with 221 samples.

Results

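Hemogenic endothelium (HE) of the aorta-gonad-mesonephros (AGM) region was compared at its early (c3) and late (c4) position on the path from endothelium to blood, gene by gene and isoform by isoform. The cells were chosen by their cluster label and by a minimum library size of 17595 estimated counts, which kept 29 of 29 early and 20 of 22 late cells, 49 of the 208 cells that pass in the whole series of 221. Each library was the full-length Smart-seq2 cDNA of 1 cell, read on a nanopore instrument, so that a read can be assigned to a transcript isoform. The cells came from untreated mouse embryos carrying Gfi1-GFP and Runx1b-RFP reporter alleles, and AGM HE was sorted as RUNX1+, KIT-, CDH5+, CD41-, CD45- and GFI1+ or GFI1-. The labels name no embryo or litter, and they give a developmental stage, E10.5, for 1 of the early cells only.

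HE cells are endothelial cells of the embryonic vessels that acquire a blood fate. During the endothelial-to-hematopoietic transition (EHT) they switch off junction, matrix and arterial genes and switch on blood transcription factors and surface receptors, and in the dorsal aorta this transition gives rise to hematopoietic stem and progenitor cells. RUNX1 and its target GFI1 are needed for the step, and Notch signalling is needed for the arterial HE of the aorta.

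The clusters had been defined by the study from short reads of the same cDNA, so any gene difference between them was in part used to separate the cells. The gene values below are therefore a description, and cells of a group are not biological replicates, so no test was made. Summed counts came to 1938829 in the early and 1390502 in the late cells. Totals per cell ran from 30323 to 115563 with a median of 55908 in early and from 34628 to 125339 with a median of 65347.5 in late cells. The 3 nanopore runs held 10, 10 and 9 early and 7, 6 and 7 late cells. The cDNA plates were not balanced: of the early cells 15 came from plate GL_SC_1, 8 from GL_SC_3 and 6 from other plates, whereas 18 late cells came from GL_SC_3 and 2 from GL_SC_1. Plate and cluster cannot be told apart outside GL_SC_3, and the values within that plate, 8 early against 18 late cells, are given beside the values of all cells. Neither depth nor run was matched within GL_SC_3, where the median total was 92684 in early and 68214.5 in late cells.

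Levels are a gene's estimated counts relative to the total of a group or a cell, scaled to CPM, and ratios are log2 ratios of late over early CPM with 0.5 counts added to each group. Among 5097 genes with at least 100 summed counts, 216 (4.24%) were at least 2-fold higher in late cells and 395 (7.75%) at least 2-fold lower, around a median log2 ratio of 0.03. Within GL_SC_3 these shares were 8.71% and 7.32%. Between the 2 larger plates of early cells alone, 8.53% of the genes were at least 2-fold higher in GL_SC_3 and 10.4% lower, and 154 genes passed 2-fold in the same direction in both comparisons. No gene separated the cells of the 2 groups without overlap (0 of 5097).

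Of the isoform differences described further down, 3 concern genes with a coding segment that some isoforms hold and others skip. The compared isoforms also differ elsewhere, and each segment is the longest internal stretch found in an isoform but not in the isoform compared with it. Each is printed 5′ to 3′ in transcript orientation, with the segment in capitals between 20 bases of neighbouring exon. The Syngr2 segment lies at chr11:117813278-117813390 (GRCm38, plus strand) and is 113 bases long. The Ecm1 segment lies at chr3:95738012-95738113 (GRCm38, minus strand) and is 102 bases long. The Adsl segment lies at chr15:80952197-80952400 (GRCm38, plus strand) and is 204 bases long.
Syngr2: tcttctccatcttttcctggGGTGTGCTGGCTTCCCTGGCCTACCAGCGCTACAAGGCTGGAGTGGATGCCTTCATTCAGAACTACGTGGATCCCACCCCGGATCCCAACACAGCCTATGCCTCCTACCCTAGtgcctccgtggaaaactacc
Ecm1: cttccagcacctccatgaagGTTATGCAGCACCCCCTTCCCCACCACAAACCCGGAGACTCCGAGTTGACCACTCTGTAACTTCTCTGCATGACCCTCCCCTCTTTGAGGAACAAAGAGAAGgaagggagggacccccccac
Adsl: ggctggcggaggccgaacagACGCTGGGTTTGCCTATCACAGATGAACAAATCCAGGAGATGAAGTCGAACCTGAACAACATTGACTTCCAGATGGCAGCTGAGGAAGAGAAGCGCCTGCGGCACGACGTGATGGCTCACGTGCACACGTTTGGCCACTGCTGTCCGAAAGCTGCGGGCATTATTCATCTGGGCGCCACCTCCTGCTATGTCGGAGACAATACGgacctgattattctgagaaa

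The genes of the sort and of the reporters were examined first, as a check of the labels. Cdh5, which encodes VE-cadherin and was the endothelial gate, was detected in all 29 early and all 20 late cells. Its level in early cells was 220 CPM at the lowest, 710 at the median and 2052 at the highest, and in late cells 76.9, 325 and 718. The late cells thus kept Cdh5 at a lower level, with overlapping ranges and a log2 ratio of -1.08 (95% counting interval -1.24 to -0.94) that was -0.73 within GL_SC_3. Pecam1, the endothelial adhesion molecule CD31, stood at 324 CPM in early and 137 CPM in late cells.

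Kit, the stem cell factor receptor, was detected in 20 of 29 early and 20 of 20 late cells although the sort took KIT- cells. The median cell had 51.6 CPM of Kit in early and 227 CPM in late HE, and the log2 ratio was 1.09, or 0.81 within GL_SC_3. Runx1, the transcription factor that defines HE, had 44.9 CPM in early and 111 CPM in late cells. Counts of Runx1 were found in 15 early and 15 late cells, with cells at 0 in both groups. Its log2 ratio of 1.31 was 0.67 within GL_SC_3 and -2.95 in the few cells of GL_SC_1. Gfi1, the RUNX1 target that marks HE, differed little, at 103 CPM in early and 115 CPM in late cells. Itga2b, which encodes CD41 and was gated out, reached 41.0 CPM in late and 7.74 CPM in early cells, and its log2 ratio of 2.37 was 1.51 without the late cell that held most of its counts. Ptprc, which encodes CD45 and was also gated out, had counts in 1 early and 1 late cell.

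Most arterial genes were lower in late than in early HE. Of 20 arterial genes, a list that includes genes the study had used for its own signatures and is for that reason not independent, 17 had at least 20 summed counts. Among these, 16 were at least 2-fold lower in late cells and none was higher, where 17.2% of all 10664 genes with at least 20 summed counts were lower and 9.1% higher. Within GL_SC_3, 12 were at least 2-fold lower and 1 higher, against 15.7% and 17% of all genes. The median log2 ratio of the 17 genes was -3.29, or -2.69 with the 5 genes that had no late count set to a floor of 3 counts, and -2.71 within GL_SC_3, where the median of all genes was 0.00.

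Gja5, the arterial gap junction protein connexin 40, was at 405 CPM in the median early cell with a range of 0 to 2107, and at 0 CPM in the median late cell with a highest value of 226. The log2 ratio was -4.06, between -6.04 and -3.16 in the 3 runs and -2.89 within GL_SC_3. Gja4, its partner connexin 37, had a median of 503 CPM in early and 0 CPM in late cells, with counts in 26 of 29 and 8 of 20 cells. Late cells thus mostly lacked counts of both arterial connexins, while the late cells that kept them overlapped the lower early cells. Hey2, a Notch target that specifies arteries, had 53.6 CPM in the early cells and no count in the late cells, at least 24.9-fold lower. Tmem100, an arterial membrane protein, had 44.9 CPM and no count, at least 20.8-fold lower. Both were sparse in early cells, with counts in 9 and 8 of 29 cells. Efnb2, the arterial ephrin, and Unc5b, a guidance receptor, had log2 ratios of -2.36 and -3.29.

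Summed over the 20 arterial genes, early cells ranged from 374 to 6779 CPM with a median of 1784, and late cells from 0 to 915 CPM with a median of 244. All 20 late cells lay below the early median. In the HE-Hb cells, the following AGM cluster of the labels (21 cells, all from GL_SC_3), the sum had a median of 40.6 CPM, so that late HE sat between early HE and HE-Hb.

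**Figure D1:**
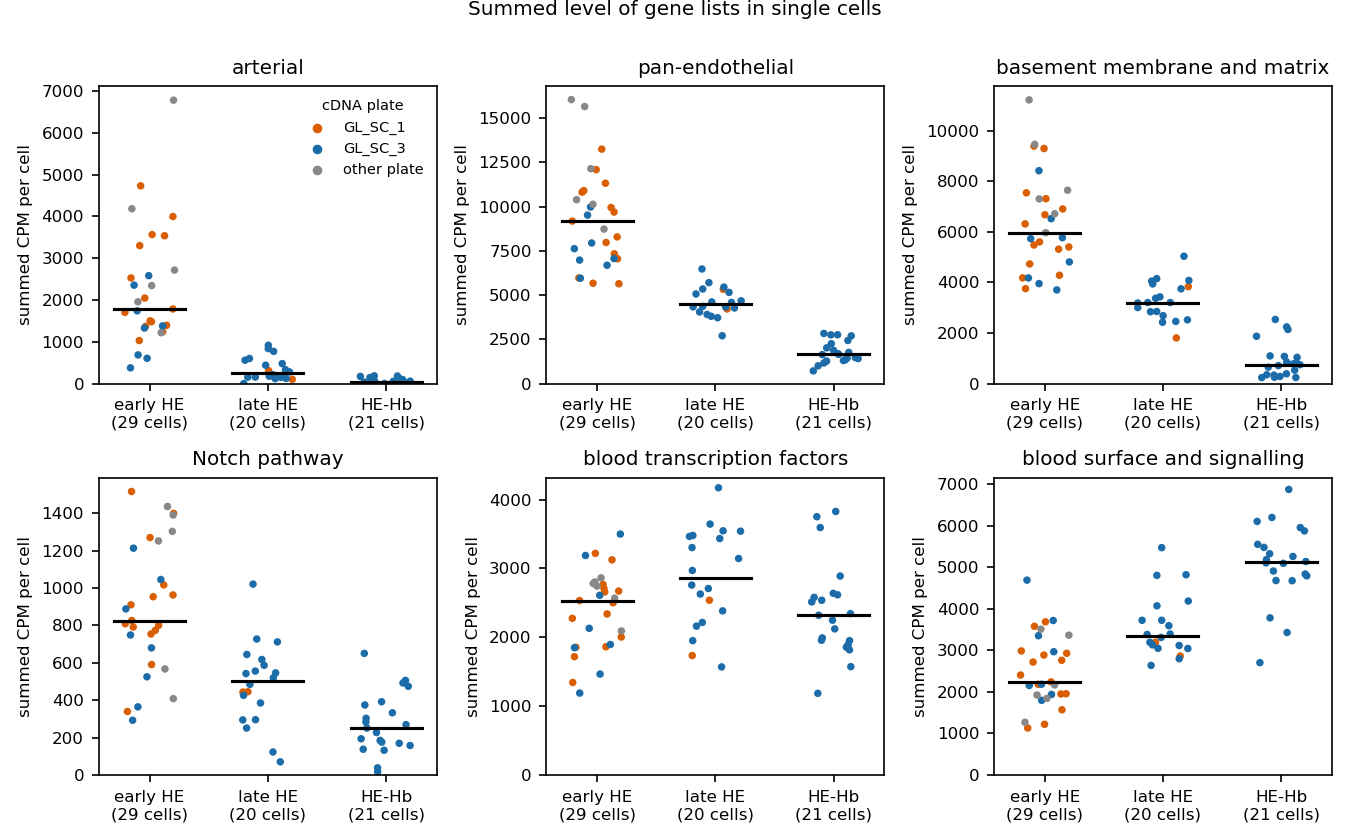
Summed CPM of 6 gene lists in each cell (vertical axes, from 0) for early HE, late HE and HE-Hb cells (horizontal axes), each point a cell coloured by cDNA plate and each bar a median. Arterial, pan-endothelial and matrix sums are lower in late than in early cells, with all 20 late cells below the early median, while the blood surface sum of all 20 late cells is above it.

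The wider endothelial programme was lower in late HE too, but less deeply than the arterial genes. Of 34 pan-endothelial genes, 33 were measured, and 19 were at least 2-fold lower in late cells and none higher. Within GL_SC_3 the counts were 13 and 1. Among all genes 17.2% were lower and 9.1% higher, and 15.7% and 17% within GL_SC_3. The median log2 ratio was -1.24, and -0.89 within GL_SC_3. The sum over the list ran from 5639 to 16049 CPM in early cells and from 2700 to 6473 CPM in late cells, with medians of 9180.0 and 4472. These ranges overlapped only between the lowest early and the highest late cells.

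Sox17, a SoxF transcription factor of arterial and hemogenic endothelium, had a ratio of -5.42 (counting interval -7.18 to -4.31). Early cells had 0 CPM at the lowest, 78.6 at the median and 628 at the highest, and only 2 of 20 late cells had a count, the higher of them 35.5 CPM. The ratio was -5.43 within GL_SC_3. Sox18, a SoxF gene of the same list, stood at 175 CPM in early and 150 CPM in late cells, so the SoxF genes did not share this gap. Nrp1, a VEGF co-receptor, was detected in 29 of 29 early and 8 of 20 late cells, with medians of 405 and 0 CPM. Kdr, the main VEGF receptor, went from 109 CPM in early to 18.7 CPM in late cells. Ptprb, the phosphatase VE-PTP, went from 94.4 to 14.4 CPM, and Cldn5, the tight junction protein claudin 5, from 585 to 189 CPM. Against these, Cd34, Icam2 and Egfl7 had log2 ratios between -0.51 and -0.44, and Tal1, a transcription factor shared with blood, was the only measured member above 0, at 0.77.

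The genes with the lowest ratios that held their sign in all runs and within GL_SC_3 were then taken by rank. The sign held in 33.3% of the 3010 genes with at least 200 summed counts. Among 843 genes that also had counts in at least 10 cells of the higher group and were no pseudogenes, 384 were lower in late cells and 113 of them at least 2-fold. After Sox17 and Gja5 followed Efna1, an ephrin, at -3.86, and Gja4 at -3.75. Ctsh, the protease cathepsin H, was at -3.50, with medians of 243 CPM in early and 0 CPM in late cells. Nrp1 was at -3.32. Cemip2, a cell-surface hyaluronidase, was at -3.04 and at -1.86 within GL_SC_3. Mest, an imprinted gene, was at -3.03. Fbn1, the microfibril protein fibrillin 1, was at -2.94. Ass1, the argininosuccinate synthase of the arginine cycle, was at -2.87. Procr, the endothelial protein C receptor that also marks stem cell precursors, was at -2.81 and was detected in 25 of 29 early and 13 of 20 late cells. The lncRNA Gm56862 at -2.57 and an unnamed lncRNA, ENSMUSG00000131059, at -2.59 completed the 15 with Ptprb and Kdr.

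**Figure D2:**
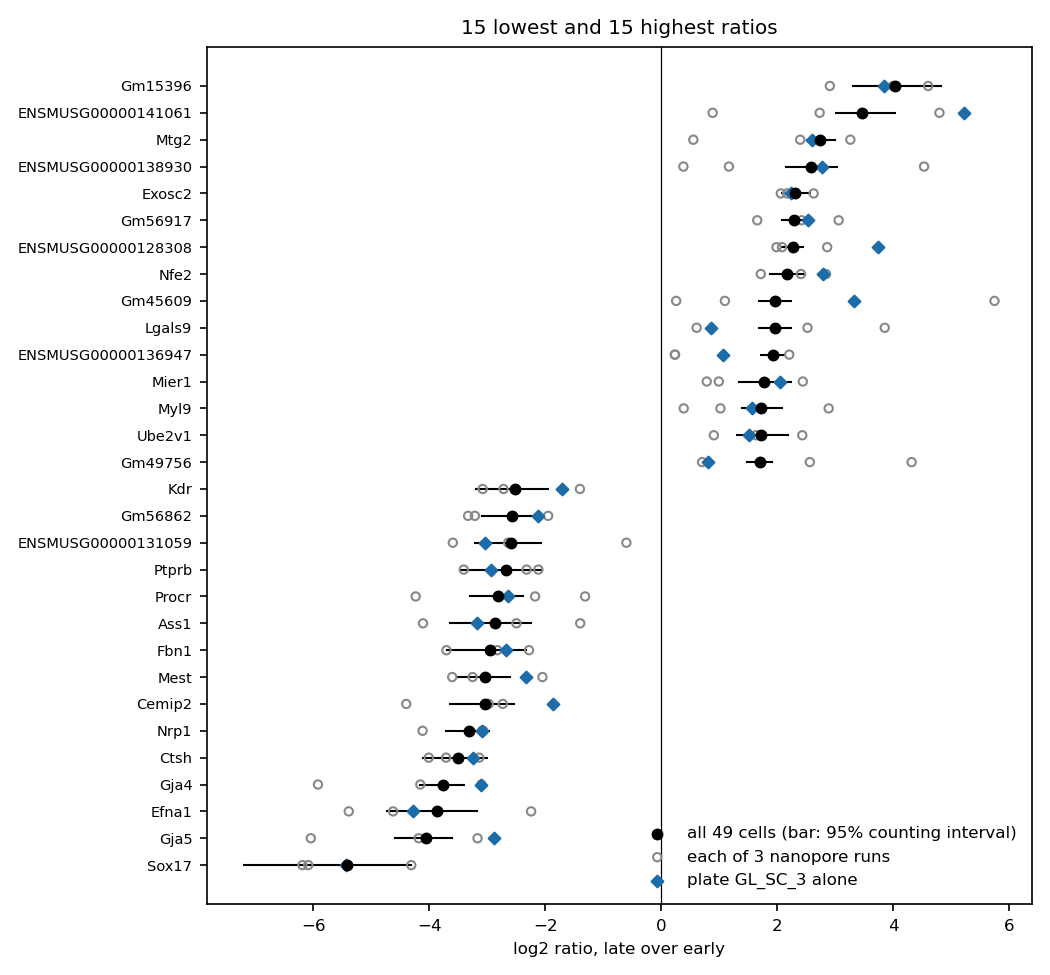
Log2 ratio of late over early CPM (horizontal axis) for the 15 genes with the lowest and the 15 with the highest ratio by the naming rule (vertical axis). Filled points with bars are all 49 cells with their 95% counting intervals, open points the 3 nanopore runs, and diamonds the cells of plate GL_SC_3; Sox17 lies lowest at -5.42 and Gm15396 highest at 4.03.

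Basement membrane and matrix genes were lower in late HE. Of 26 genes, 22 were measured, 15 were at least 2-fold lower and 1 was higher, with a median log2 ratio of -1.31. Within GL_SC_3, 9 were lower and 2 higher, with a median of -0.87. Among all genes 17.2% were lower and 9.1% higher, and 15.7% and 17% within GL_SC_3. Col4a2, a chain of basement membrane collagen IV, was detected in 29 of 29 early and 15 of 20 late cells, at medians of 467 and 88.1 CPM, and its log2 ratio was -2.25. Nid1, which links laminin to collagen IV, had a log2 ratio of -2.36 that was -0.38 within GL_SC_3. Lamb1, a laminin chain, had one of -2.26, and -1.51 within GL_SC_3. Col18a1, the collagen that holds endostatin, was at 451, 1647 and 3203 CPM in the lowest, median and highest early cell and at 167, 579 and 1424 CPM in late cells. Timp3, an inhibitor of matrix proteases, was the exception, at 32.0 CPM in early and 101 CPM in late cells, a log2 ratio of 1.66 that was 1.76 within GL_SC_3 but -3.19 in GL_SC_1.

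Notch pathway genes moved in both directions between early and late HE. The list, again partly from the study's signatures and not independent, had 16 measured members of 18. Of these, 7 were at least 2-fold lower and 3 at least 2-fold higher in late cells (6 and 3 within GL_SC_3). Among all genes 17.2% were lower and 9.1% higher, and 15.7% and 17% within GL_SC_3. The share of higher members within the plate was thus near that of all genes. The lower members were mainly ligands and targets. Jag1, a Notch ligand, had 57.8 CPM over 14 early cells and no count in late cells, at least 26.8-fold lower. Notch4, the endothelial receptor, was detected in 19 of 29 early cells and 1 of 20 late cells, with a log2 ratio of -4.56. Hes1, a target gene, went from 66.5 to 14.4 CPM. Rbpj, the DNA-binding partner of all Notch receptors, was instead higher, at 24.2 CPM in early and 79.1 CPM in late cells, with a log2 ratio of 1.70 and 1.38 within GL_SC_3. Notch1, the receptor needed for aortic HE, depended on the plate: its log2 ratio was -1.08 over all cells and 0.62 within GL_SC_3.

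Flow-response and immediate early genes were mostly lower in late HE over all cells, and this held less well within a plate. Of 18 measured genes among 22, 13 were at least 2-fold lower and 2 higher, but within GL_SC_3 the counts were 7 and 4, and the median log2 ratio went from -1.35 to -0.55. Nos3, the endothelial nitric oxide synthase that flow induces, was lower in both views, from 241 to 43.1 CPM with log2 ratios of -2.47 and -2.55. Fos and Junb, subunits of the immediate early factor AP-1, had ratios of -3.37 and -2.53 over all cells but 2.57 and 0.33 within GL_SC_3. Among all genes 17.2% were lower and 9.1% higher, and 15.7% and 17% within GL_SC_3. In the BMP and TGF-beta list, 4 of 15 measured genes were at least 2-fold lower and 1 higher. Acvrl1, the endothelial receptor ALK1, went from 59.3 to 8.63 CPM, Id3, a BMP target, from 595 to 260 CPM (-1.19, and -0.33 within GL_SC_3), Smad2 had a ratio of -1.55 and Smad5 one of 1.06.

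Blood transcription factors were more often higher than lower in late HE, with smaller steps than the arterial genes. Of 28 measured genes among 32, 8 were at least 2-fold higher and 2 at least 2-fold lower, and within GL_SC_3 7 and 1. Among all genes 9.1% were higher and 17.2% lower, and 17% and 15.7% within GL_SC_3. Only 12 of the 28 kept their sign in all runs and within GL_SC_3. The median log2 ratio was 0.35, and 0.27 within GL_SC_3, against -0.06 and 0.00 for all genes with at least 20 counts. The sum over the list had medians of 2534 CPM in early and 2864 CPM in late cells, with 14 of 20 late cells above the early median.

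Nfe2, a factor of megakaryocytes and erythroid cells, was among the 15 highest genes. It was at 0 CPM in the median early cell with a highest value of 640, and at 226 CPM in the median late cell with a highest value of 995. Counts were found in 12 of 29 early and 19 of 20 late cells, with a log2 ratio of 2.18, between 1.72 and 2.84 in the runs and 2.80 within GL_SC_3. Hlf, a factor that marks emerging stem and progenitor cells, was found in 6 early and 14 late cells, at 13.4 and 61.8 CPM. Myb, needed for definitive blood, was detected in 13 early and 19 late cells, with medians of 9.22 and 125 CPM. Gfi1b, the paralogue of Gfi1, went from 7.74 CPM in early to 20.9 CPM in late cells, from 3 and 7 cells. Myc had a log2 ratio of 1.60 that ran from -0.91 to 3.18 among the runs. Spi1, which encodes the myeloid factor PU.1, had one of 0.73 that was -0.01 within GL_SC_3. Mecom, a stem cell factor that is also an arterial gene, was lower in late cells, at 222 and 69.8 CPM.

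The sum over the blood surface and signalling genes was higher in most late cells than in most early cells. It ran from 1131 to 4691 CPM with a median of 2243 in early cells, and from 2639 to 5474 CPM with a median of 3348 in late cells, and all 20 late cells lay above the early median. Of 27 measured genes among 42, 7 were at least 2-fold higher and 3 at least 2-fold lower, where 9.1% and 17.2% of all genes were. Within GL_SC_3 the counts were 4 and 2, against 17% and 15.7% of all genes. Fcer1g, the shared signalling chain of Fc receptors, was nearly absent from early cells, at 1.55 CPM, and reached 34.5 CPM in 8 late cells, with a log2 ratio of 4.27. Coro1a, a leukocyte actin regulator, went from 109 to 229 CPM, and Adgrg1, the receptor GPR56 of emerging stem cells, from 375 to 653 CPM, with counts in every late cell. The lower members, Procr, Cd93 and Cd44, are shared with endothelium.

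**Figure D3:**
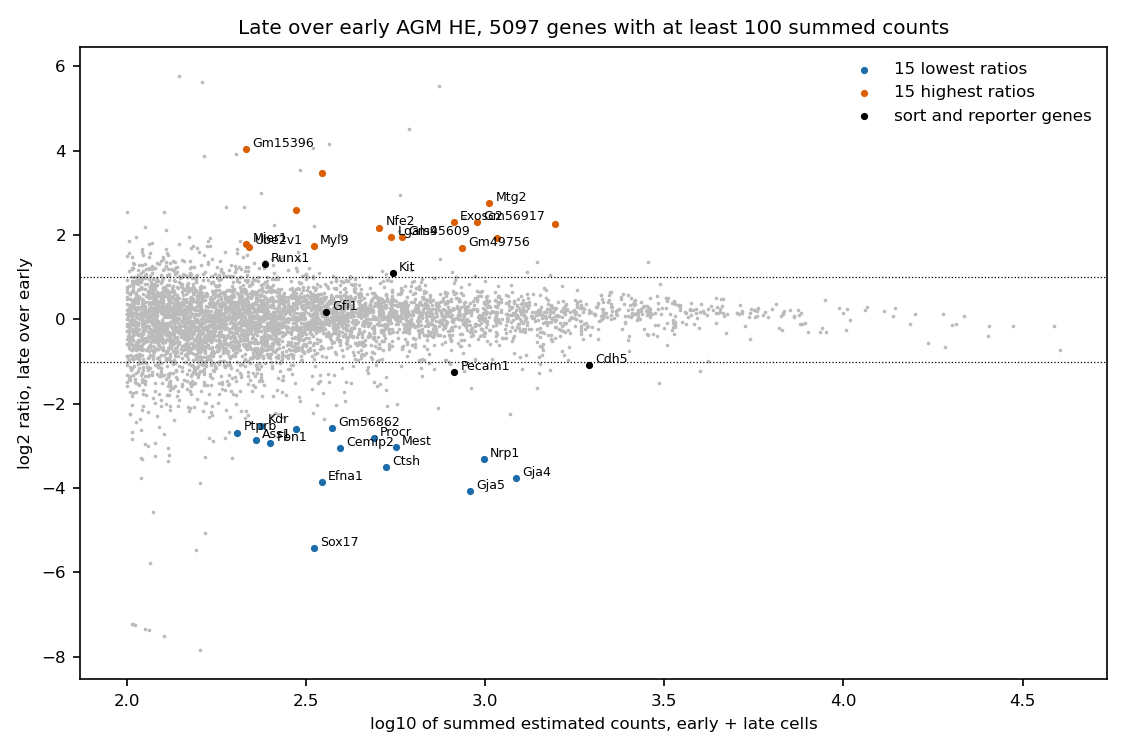
Log2 ratio of late over early CPM (vertical axis) against the log10 of the summed estimated counts (horizontal axis) for 5097 genes in grey, with the 15 lowest, the 15 highest and the sort and reporter genes coloured and dotted lines at 2-fold. Ratios spread more at low counts, and 395 genes lie below the lower dotted line against 216 above the upper.

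The 15 highest ratios that held their sign in all runs and within GL_SC_3 were a mixed set, 8 lncRNA and 7 protein-coding genes. Among all lncRNA genes with at least 100 counts, 12.9% were at least 2-fold higher and 9.12% lower, against 3.98% and 8.75% of protein-coding genes and 1.41% and 1.13% of pseudogenes. Mtg2, a GTPase of the mitochondrial ribosome, was at 52.6 CPM in the median early and 184 CPM in the median late cell, and its log2 ratio was 2.75. Exosc2, a subunit of the RNA exosome, had medians of 56.4 and 233 CPM, with counts in 22 of 29 early and 19 of 20 late cells and ratios between 2.07 and 2.63 in the runs. Lgals9, the lectin galectin 9, was found in 11 of 29 early and 18 of 20 late cells, and its ratio of 1.96 was 0.87 within GL_SC_3. Mier1, Myl9, the regulatory light chain of smooth muscle myosin, and Ube2v1, a ubiquitin-conjugating factor, had ratios of 1.78, 1.73 and 1.73.

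Several of the lncRNA values rested on few cells. Gm15396 had the highest ratio, 4.03, but 66.2% of its late counts lay in 1 cell and without that cell the ratio was 2.59. ENSMUSG00000138930 had a ratio of 2.58 with 76.6% of its late counts in 1 cell, and 0.56 without it. Gm56917 was spread more widely, with medians of 35.3 CPM in early and 216 CPM in late cells, counts in 17 of 29 and 16 of 20 cells, and a level of 1139 CPM in HE-Hb; its ratio of 2.30 was -0.67 in GL_SC_1. The sequence overlap of these lncRNAs with other loci was not analysed here.

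The study had also drawn lists for all HE and for the yolk sac fates. Of 8 common HE genes, 1 was at least 2-fold higher (Runx1) and 1 lower (P2ry1, a purine receptor), with a median of 0.04. Mycn, which belongs to this list, went from 156 to 257 CPM. Of 7 measured EMP-fate genes 6 had a ratio above 0 and 1, Mlec at 1.13, was at least 2-fold higher. The list's median was 0.41, and 0.29 within GL_SC_3, and its sum was above the early median in 19 of 20 late cells. Of 10 measured LMP-fate genes 2 were at least 2-fold lower, with a median of -0.19. Among all genes 17.2% were at least 2-fold lower and 9.1% higher, so the 2-fold counts of these lists were near the shares of all genes. Tspan13 in the LMP-fate list had a ratio of -2.25, and the imprinted RNA H19 one of -0.57. These lists were chosen on related samples of the study and are not independent.

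Splicing genes showed ratios near those of all genes. The median log2 ratio was -0.08 for 19 SR and SR-like genes, 0.05 for 27 hnRNP genes and 0.11 for 26 core spliceosome genes. The members past 2-fold were Clk1, an SR protein kinase, at -1.51 (-0.12 within GL_SC_3), Sf3b1, a branch-point factor of the U2 particle, at -1.33 (-1.15 within GL_SC_3), and Hnrnph2 at 1.29 (0.64 within GL_SC_3 and -0.67 in run 2).

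The same lists in yolk sac HE are given for orientation, as the labels sort those cells into early and late clusters too. The labelled stages of the yolk sac cells were E9.0, E9.5 and E10.5, and most of these cells came from cDNA plates without AGM cells. Stage and plate were not matched between their early and late clusters. In the YSA clusters (23 early and 29 late cells) the median log2 ratio of late over early was -2.61 for arterial, -0.99 for pan-endothelial, -0.84 for matrix and 1.17 for blood surface genes. In the YSP clusters (25 and 24 cells) the medians were -0.12, -1.23, -1.73 and 0.65. The arterial median of AGM HE, -3.29, thus had a counterpart in YSA. The YSP median was near 0, but the counts of the arterial genes in YSP cells were not examined. Genes with few counts in both clusters can also give ratios near 0. The YSP median therefore cannot show whether arterial genes were lower in late YSP cells or not. Whether the clusters differ beyond chance was not tested. Sox17 was lower in late cells of all 3 origins, at -5.42 in AGM, -1.88 in YSA and -8.07 in YSP. The YSA and YSP ratios were given no floor, so the sizes of these drops were not compared. Procr, at -2.81 in AGM, was at 0.36 in YSA and -1.05 in YSP, and Mtg2, at 2.75 in AGM, was at -1.09 and -0.71.

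Markers of other cell types were examined as a check on the sort. Mesenchyme markers had no member of 12 with 20 counts, and Col1a1, Col3a1 and Lum were at 0 in both groups. Of 12 macrophage markers only Lyz2 and Fcgr3 were measured, with C1qa, C1qb, C1qc, Adgre1 and Mrc1 at 0. The macrophage sum ran from 0 to 297 CPM in early and from 0 to 523 CPM in late cells, with Lyz2 at 46.9 and 131 CPM. Of 9 megakaryocyte markers only Itgb3 was measured, at 176 CPM in early and 352 CPM in late cells, and Gp5, Gp6 and Gp1bb were at 0. Of 9 epithelial markers only Krt18 was measured, while Epcam, Cdh1 and Krt8 were at 0. Krt18 stood at 23.5 CPM in early and 89.5 CPM in late cells, with a log2 ratio of 1.92 that was 1.47 within GL_SC_3, and ran from 0 to 238 CPM and from 0 to 363 CPM over cells; its part in the results was not tested. Neural markers Tubb3 and Stmn2 were higher in early cells, at 33.3 and 33.0 CPM against 4.27 and 4.31 CPM, with Sox2, Sox10 and Pax6 at 0; the neural sum ran from 0 to 464 CPM in early and from 0 to 130 CPM in late cells. Of 4 venous genes only Flrt2 was measured, at 15.5 and 15.8 CPM.

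Globin counts were concentrated in 1 early cell. Summed erythroid markers reached 12073 CPM in that cell, whereas the median of both groups was 0 CPM and the highest late cell had 473 CPM. Hbb-bh1, the embryonic beta-like globin, had 82.5 CPM in early cells and no count in late cells. Without that cell, which had the plate label plate2, both groups stood at 0 counts of Hbb-bh1. The log2 ratio of 0.44 then came only from the group totals. The part of these markers in the other results was not tested.

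Isoform fractions, the share of a gene's counts assigned to each transcript, were compared next. With each gene thinned to 100 counts in each group, 521 of 1684 genes (30.9%) held at least 1 isoform with fractions more than 0.1 apart in early and late HE, and 5.05% held one more than 0.2 apart. Within GL_SC_3 the share was 27%. The same measure between runs of the same group gave 32.2% to 38.9% in early and 29.5% to 33.8% in late cells, and between the larger plates of early cells 32.8%. The share between early and late HE over all cells lay within the range of the shares between runs of 1 group. It pooled more cells per side than those, however. Within single runs, with fewer cells per side, late against early gave 25.9% in run 1, 28.9% in run 2 and 34.3% in run 3. None of these passed the highest share between runs of 1 group. A difference of 0.1 in a single gene is therefore no finding about HE. Against HE-Hb the shares were 32.4% for early and 28.9% for late cells.

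**Figure D4:**
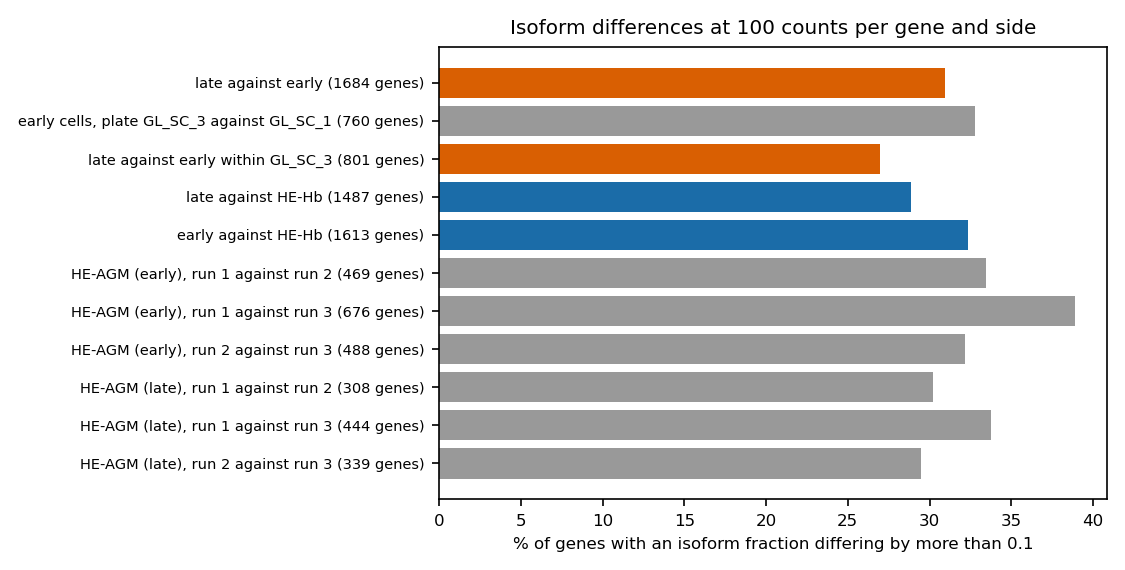
Percentage of genes with an isoform whose fraction differs by more than 0.1 (horizontal axis, from 0) for each comparison (vertical axis), all thinned to 100 counts per gene and side. The bar for late against early, 30.9%, lies within the bars for runs of the same group, from 29.5% to 38.9%. The run bars pool fewer cells per side.

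By a stricter rule, with 20 counts in each group in every run and within GL_SC_3, 1402 genes could be followed. An isoform passed 0.1 in 285 of them and did so with the same sign in all runs and the plate in 160. The 12 genes with the largest such differences are described here, and since they were chosen for these differences the values are a description. Assigned transcripts were shorter in late cells. Their mean annotated length per cell had a median of 1536 bases in early and 1415 bases in late cells. Within GL_SC_3 these medians were 1485 and 1425 bases. The part of this length difference in shifts between long and short isoforms was not tested. The largest belonged to the lncRNA gene ENSMUSG00000121395, of which 1 isoform went from a fraction of 0.28 to 0.78. Without the cell that held most of its counts the difference fell from 0.50 to 0.25.

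Plcg1, phospholipase C gamma 1 of receptor signalling, had a smaller share of counts assigned to the long coding isoform in late cells, and a larger share to a short one. The coding Plcg1-203, 5107 bases long, held 0.64 of the counts in early and 0.20 in late cells. Plcg1-209, annotated as a retained intron of 643 bases at chr2:160754067-160754864 (GRCm38, plus strand), held 0.22 (exact binomial interval 0.16 to 0.29) and 0.67 (0.59 to 0.74). Its late fraction lay between 0.62 and 0.70 in the runs and its early fraction between 0.15 and 0.30, and within GL_SC_3 the fractions were 0.31 and 0.67. It was found in 9 of 22 early and 7 of 12 late cells with counts of the gene, and the median fraction over those cells was 0 in early and 0.70 in late HE.

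Syngr2, the vesicle protein synaptogyrin 2, held the 113-base segment printed above more often in late cells. Isoforms that hold it made up 0.63 of the counts that could be assigned either way in early cells (190 counts with and 110 without) and 0.87 in late cells (206 and 30). The fraction was higher in late cells in each run, from 0.60 to 0.80, from 0.56 to 0.84 and from 0.68 to 0.94, and within GL_SC_3 it went from 0.76 to 0.92. The segment is not a multiple of 3 bases, so skipping it changes the reading frame. The skipping isoform Syngr2-206 went from 0.36 to 0.12 of the gene, and Syngr2-201 from 0.48 to 0.84.

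Adsl, adenylosuccinate lyase of purine synthesis, went the other way for its 204-base segment, which keeps the frame. Its fraction was 0.94 in early and 0.65 in late cells, lower in late cells in each run, and 0.99 and 0.72 within GL_SC_3. The skipping isoform Adsl-212 was found in 3 of 22 early and 7 of 20 late cells with counts of the gene and had a median fraction of 0 in both, so the pooled value came from few cells.

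Ecm1, extracellular matrix protein 1, showed a less stable pattern. Its 102-base segment was held by 0.94 of the counts in early and 0.70 in late cells, but in run 3 the fractions were 0.89 and 0.97, the opposite direction. The isoform Ecm1-205, which also differs elsewhere, went from 0.54 to 0.17 with the same sign in each run.

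The other genes of the 12 were as follows. Timm50, of the mitochondrial import channel, went from 0.18 to 0.45 for the retained-intron isoform Timm50-206, which carries 135 intronic bases at chr7:28306530-28306664 (GRCm38, minus strand). Lars1, the cytosolic leucyl-tRNA synthetase, went from 0.78 to 0.50 for an isoform annotated for nonsense-mediated decay. Col4a1, a partner chain of Col4a2, went from 0.61 to 0.88 for the 1170-base Col4a1-206 while the gene itself was lower in late cells. Ghitm-201 went from 0.41 to 0.68 and Med25-201, of a Mediator subunit, from 0.24 to 0.52. Znhit3-201 and Lrwd1-201 were lower in late cells, from 0.42 to 0.16 and from 0.43 to 0.17.

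**Figure D5:**
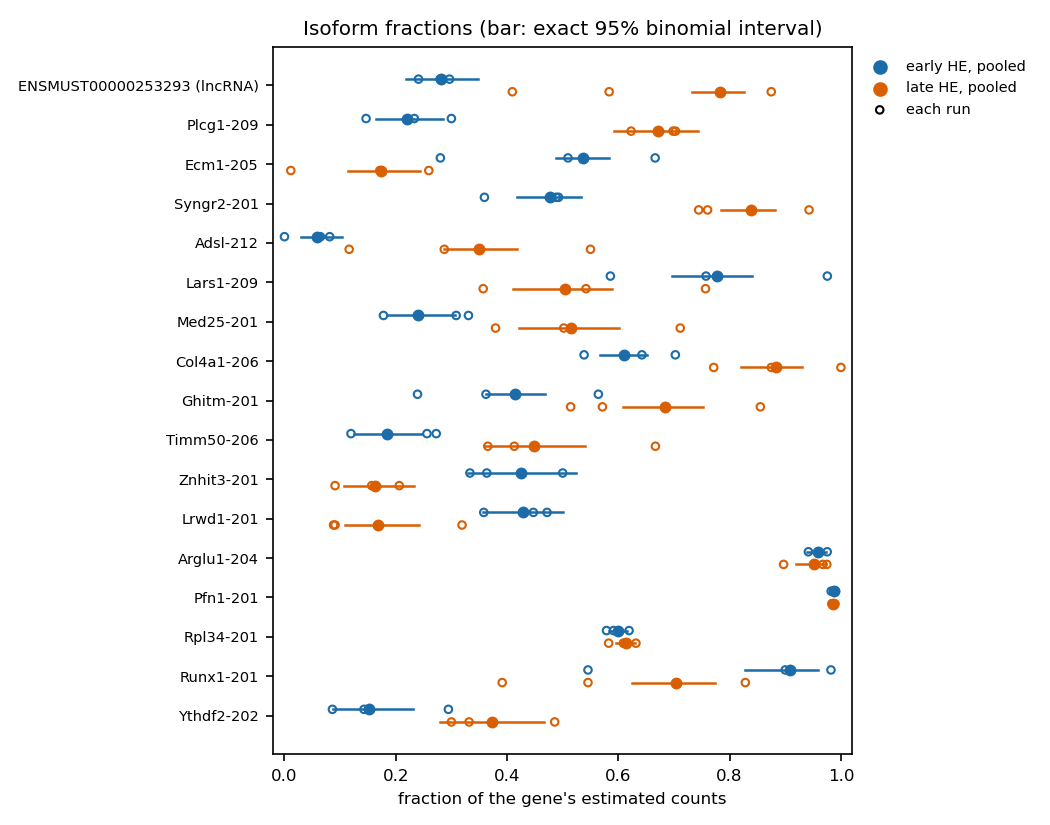
Fraction of a gene's estimated counts (horizontal axis, 0 to 1) held by 17 named isoforms (vertical axis) in early and late HE. Filled points are pooled cells with exact 95% binomial intervals, and open points the 3 runs. The 12 upper isoforms were chosen for their difference. Below them, late minus early differences were -0.001 for Pfn1-201, -0.007 for Arglu1-204 and 0.014 for Rpl34-201.

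Genes for which the study shows isoforms were taken as a second set. Pfn1-201 (profilin 1) held 0.99 in both groups, Arglu1-204 0.96 and 0.95, and Rpl34-201 0.60 and 0.61. Ythdf2, a reader of methylated adenosine, went from 0.15 to 0.37 for Ythdf2-202, and the late fraction was higher in each run. Runx1-201, which is annotated to start at the distal promoter, went from 0.91 to 0.70. Counts were also split by the annotated start of the isoform they were assigned to. Isoforms with a distal start held 79 of 87 early counts of Runx1 (90.8%, exact interval 82.7% to 95.9%). They held 124 of 155 late counts (80.0%, 72.8% to 86.0%). Whether the reads reached the start was not tested. Within GL_SC_3 the shares were 86.5% and 80.0%, and in run 2 they were 54.5% and 69.7%, the opposite order, so the distal share was not shown to differ.

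The isoform spread per gene did not differ on balance. The Laplace entropy of isoform counts, with 1 count added per isoform, was higher in late cells for 50% of 3385 genes, with a median difference of 0. Within GL_SC_3 it was higher for 56.2%, with a median difference of 0.0139. Between plates of early cells the median difference was -0.0386, which was larger than either. By transcript class, protein-coding isoforms made up 55.8% of early and 54.4% of late counts, and processed pseudogenes 13% and 14.5%. Within GL_SC_3 the late minus early differences shrank to -0.34 and 0.13 percentage points. Genes detected per cell had medians of 4995 in early and 4939.5 in late cells, and 5915 and 4979 within GL_SC_3. With each cell thinned to 28000 counts, the medians over all plates were 4592 in both groups. Within GL_SC_3 the thinned medians were 4957 in early and 4617 in late cells.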

How the data were processed

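Nanopore libraries of single AGM HE cells were analysed from the deposited transcript tables. The authors basecalled with Dorado, trimmed and removed chimeric reads with bbduk, YACRD and porechop, aligned with Minimap2 2.26 to GENCODE M37 transcripts, keeping up to 10 alignments per read, and estimated abundances with NanoCount. The deposited estimated counts, for 278369 transcripts of 78317 genes, carry no normalization by the authors. The deposited TPM are those counts scaled to an equal total per cell, with no length term. Reads shared between near-identical transcripts are split by NanoCount, which makes fractions of similar isoforms, pseudogenes and lncRNAs uncertain.

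Cells below 17595 counts were left out, after the 1-MAD limit of the methods. Counts were summed per group and gene (Python 3.11.15, pandas 2.3.3, scipy 1.17.1). Estimated counts were rounded for thinning, intervals and size factors (DESeq2 1.42.0, poscounts, as an alternative only). Intervals are 95% exact Poisson or Clopper-Pearson and cover counting error only. Since cells are not replicates and embryos are not named, no p-value was computed. The floor was 3 counts per group. Summed gene ratios and isoform differences without thinning were tested on simulated data, and thinning was not.

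Named genes were the sort genes, the 15 highest and 15 lowest ratios with at least 200 summed counts, counts in at least 10 cells of the higher group, no pseudogene class and the same sign in 3 runs and GL_SC_3, and up to 4 members with at least 50 counts of each of 27 lists. Isoforms were named as described in the text. Efnb2, Unc5b, Cldn5, Notch1, Rbpj, Myb, Gfi1b, Spi1, Adgrg1, Col18a1, Timp3 and the members quoted without a range were chosen after their values were seen. Members and lists were chosen with earlier results of these data known. Sequences and positions came from GENCODE M21 (GRCm38), used only for isoforms with the same identifier and length as in the files. Of the list members, 1 is not reported here. Alternatives covered filters, scaling, depth, plates and runs.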

Additional observations from a re-analysis of the deposited data

How the results depend on the processing

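The counts of genes at least 2-fold higher (216) and lower (395) in late HE followed the number of cells and counts. They were 444 higher in plate GL_SC_3 alone (lower count within 1.5 times), 788 and 1493 in GL_SC_1 alone (2 late cells), 566 and 716 in run 1, 651 and 884 in run 2, 498 and 661 in run 3, 71 and 123 with cells thinned to 28000 counts, 970 and 1834 with at least 20 summed counts, 25 and 32 with at least 500, and 124 and 258 for protein-coding transcripts only. The isoform share of 30.9% was 46.7% at 50 counts, 15.8% at 200 counts, 23.6% without thinning, 5.05% for differences over 0.2 and 25.9% in run 1. The median entropy difference was 0.0139 within GL_SC_3 and -0.018 in run 2. In percentage points, late minus early shares within GL_SC_3 were -0.343 for protein-coding isoforms, 0.132 for processed pseudogenes, 0.140 for coding genes without a defined CDS, 0.0522 for nonsense-mediated decay and -0.00955 for transcribed processed pseudogenes, and in run 1 they were -0.890, 0.458, 0.111, 0.0124 and 0.121, with 0.255 for retained introns. In run 2 they were -0.407 for lncRNA and -0.0481 for unprocessed pseudogenes. The difference in median genes detected (-55.5) was 325 with any value above 0 and -936.0 within GL_SC_3.

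Of the log2 ratios of named genes, 1124 values under alternatives kept their size within the spread of the runs and 225 moved further. Another 48, counted only for genes at least 2-fold apart over all cells, changed sign. Within GL_SC_1 these were Runx1 (-2.95), Itga2b (-1.32), ENSMUSG00000141061 (-2.33), ENSMUSG00000138930 (-0.68), Gm56917 (-0.67), Gm45609 (-0.94), Myc (-2.44), Cd93 (0.13), Pola1 (-2.44), Cenpf (-1.29), G2e3 (0.33), Ckap2l (-0.63), Ddx21 (-0.31), Hk2 (-0.44), Smad5 (-2.42), Fcgr3 (-1.32), Krt18 (-0.029), Rbpj (-0.22), Timp3 (-3.19), Gfi1b (-1.79), and Hbb-bh1, Hba-a2, Hba-x and the erythroid median (each 3.07). Within GL_SC_3 they were Fos (2.57), Junb (0.33), Notch1 (0.62), Hba-x (1.43) and Hbb-y (0.72). In run 1 they were Myc (-0.91), Pola1 (-1.04) and Fcgr3 (-0.83). In run 2 they were Cenpf (-1.95), Polr1b (-0.73), Hnrnph2 (-0.67), Notch1 (0.51), Klf10 (0.42), Hbb-bh1, Hba-a2, Hba-x and the erythroid median (each 0.42). In run 3 they were Hbb-bh1, Hba-a2 and the erythroid median (each 0.40) and Hbb-y (6.87). Without the cell with most counts, an alternative chosen after seeing the data, they were Cenpf (-0.26), Hbb-bh1 (0.44) and Hbb-y (1.23), and in project GL34 alone Hbb-bh1 (0.15), Hba-x (2.47) and Hbb-y (0.94). The globin values shared between genes, 3.07 in GL_SC_1, 0.42 in run 2 and 0.40 in run 3, stand for 0 counts in both groups. So do the Hbb-bh1 values of 0.44 and 0.15. They come only from the 0.5 counts added and the group totals and show no globin difference. The erythroid medians are list values and come on top of the 48. Ratios below 2-fold over all cells that changed sign, such as that of Spi1 within GL_SC_3, are not listed. The cause was not tested. No paired analysis was possible because no test was made and no label pairs an early with a late cell; the 3 runs hold cells of both groups, and ratios within each run are given instead. Depth limits genes with few counts: a gene at 0 in a cell may be present below detection.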

Other observations

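Gene groups outside the EHT programmes were counted in the same way, where 9.1% of all genes were at least 2-fold higher in late cells and 17.2% lower. Of 40 measured S phase genes, 3 were at least 2-fold higher in late cells and none lower, and of 50 measured G2/M genes 5 were higher and 2 lower, with median log2 ratios of 0.10 and -0.03. Cenpf, a kinetochore protein of dividing cells, had a ratio of 2.09 that was -0.26 without the late cell that held most of its counts. Of 30 measured nucleolar and ribosome biogenesis genes, 25 had a ratio above 0, 5 were at least 2-fold higher and 1 lower, with a median of 0.39 over all cells and 0.39 within GL_SC_3, and the sum over the list was above the early median in 17 of 20 late cells. Ddx21, a nucleolar RNA helicase, went from 36.1 to 105 CPM, and Rrp9, of the U3 particle, had a ratio of 1.42. Of 15 measured glycolysis genes, Hk2 (hexokinase 2) had a ratio of 1.22 and Pfkp (platelet-type phosphofructokinase) one of -2.00, around a median of 0.10. None of the 13 mitochondrially encoded genes passed 2-fold, with a median of -0.21.

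In the actin cytoskeleton list, 5 of 34 measured genes were at least 2-fold higher in late cells and 1 was lower. Within GL_SC_3 the counts were 4 and 1, where 17% and 15.7% of all genes were at least 2-fold higher and lower. The lower member, Marcks, which tethers actin to the membrane, was found in 17 of 29 early and 2 of 20 late cells, with a log2 ratio of -3.88 that was -4.13 within GL_SC_3. Its highest early cell had 297 CPM and its highest late cell 92.3 CPM. Cnn2, a calponin, had a ratio of 1.36.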
